A study of Mus musculus with 6 samples.

Results

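Calcium/calmodulin-dependent protein kinases, calmodulin and a set of postsynaptic plasticity genes were followed in total brain of mice that lack the neural cell adhesion molecule NCAM. The 9 genes were Camk2a, Camk2b, Camk2d, Camk2g, Camk4, Nrgn, Calm2, Dlg4 and Homer1. They were chosen by name, with the knockout against wild-type values of these arrays already known, so those values are given as a description. Every probe set annotated with 1 of these symbols alone was taken, which gave 10 of the 12422 probe sets on the array and covered 8 of the 9 genes. Camk2g had no such probe set and was not analysed here. Camk2a and Homer1 had 2 probe sets each. Of the 10, 7 were bright enough to be tested, among 7453 in all, and the Camk2d probe set and both of Homer1 were not.

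The knockout group held 3 male mice with a constitutive knock-out of Ncam (Ncam-/-), and the wild-type group 3 male Ncam+/+ mice of the same C57BL/6J background. Replicates 1 and 2 of either genotype were aged 2 months, and replicate 3 was aged 3 months. Each animal gave 1 one-colour Affymetrix array. The mutation is not limited to a cell type, and total brain mixes all regions, so fewer cells of a type and less RNA per cell cannot be told apart in any value below.

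Calcium that enters a dendritic spine through glutamate receptors binds calmodulin, and calcium-loaded calmodulin switches on the CaM kinases. CaMKII, a holoenzyme built from alpha, beta, gamma and delta subunits, phosphorylates receptors and scaffold proteins of the postsynaptic density and is required for long-term potentiation in the hippocampus. CaMKIV acts in the nucleus, where it phosphorylates the transcription factor CREB, which binds the cyclic AMP response element TGACGTCA and its half-site TGACG. Neurogranin holds calmodulin near the membrane when calcium is low, PSD-95 anchors glutamate receptors, and Homer1 links group I metabotropic receptors to calcium stores, with a short form that neuronal activity induces.

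The promoters of some members were searched for the CREB letters, and nothing is known here of the others. The search took in Camk2b, Camk2d, Nrgn, Dlg4 and Homer1, 5 of the 9 genes, and left out the others, Camk2a among them. The windows, 8 in all, came from the RefSeq table of assembly GRCm38.p6 and were cut to the 250 bases before the start site. They were searched on both strands for TGACGTCA, its half-site TGACG, which lies within it, the GC box GGGCGG and the TATA box TATAAA. A contrasting pair is printed, that of Homer1 at chr13:93303507-93303756 on the plus strand and that of Camk2d at chr3:126596701-126596950 on the plus strand, with every match in capitals, Homer1 because it is the member known to respond to activity and Camk2d because its signals did not overlap between genotypes.
Homer1: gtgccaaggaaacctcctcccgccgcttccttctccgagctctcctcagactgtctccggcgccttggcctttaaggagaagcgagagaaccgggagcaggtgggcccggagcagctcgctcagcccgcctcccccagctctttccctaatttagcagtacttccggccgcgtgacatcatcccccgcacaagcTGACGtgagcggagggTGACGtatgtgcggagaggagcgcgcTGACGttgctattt
Camk2d: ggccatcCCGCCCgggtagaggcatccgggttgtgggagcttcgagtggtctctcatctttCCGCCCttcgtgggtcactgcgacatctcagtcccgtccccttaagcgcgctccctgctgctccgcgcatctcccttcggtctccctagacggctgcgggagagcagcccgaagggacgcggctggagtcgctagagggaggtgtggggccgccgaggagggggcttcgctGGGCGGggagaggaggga
The capitals in the Homer1 window are 3 CREB half-sites, whose first bases lie 56, 40 and 14 bases before the start. At least 1 half-site was present in 17.8% of all 32851 windows and 3 or more in 0.688%. The capitals in the Camk2d window are 3 GC boxes and there is no half-site, and 8.47% of all windows hold 3 or more GC boxes. The Camk2d window lies before a start site within the gene, which begins at chr3:126595487. The second Homer1 window held none of the 4 motifs, and 1 of the Dlg4 windows held 1 half-site. A match describes the letters and not a binding site.

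Arrays differed in the signals of genes known from the cerebellum and from the pituitary, and the cerebellar values are set beside Camk4 and Homer3 below. On knockout replicate 2, Gabra6, a receptor subunit of cerebellar granule cells, read 11.8, against 1254 to 1388 on the other 5 arrays, and the summed signal of 13 measured cerebellar genes was 4964, against 13036 to 14494. On knockout replicate 1 the summed signal of 7 pituitary genes was 16274, against 1659 to 1986. Ncam1, by its brightest probe set, read 276.2, 208.7 and 327.4 in the knockout brains, against 1346, 1448 and 1216 in the wild-type brains, lower in every knockout animal. Signals are linear intensities, with a trimmed mean of 300.2 on every array. Differences below are knockout minus wild type (or 3 months minus 2 months) of log2(signal + 16), which understates changes of dim genes, with standard errors from limma. The small number of arrays limits the precision, with a median standard error of 0.12.

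The 2 genotypes did not overlap for 3 of the 10 member probe sets, 1 of Camk2a and the Calm2 probe set, which read higher in knockout brains, and that of Camk2d, which read lower. Over all 12422 probe sets 6.59% were higher and 5.45% lower in knockout brains without overlap. None of the 7 tested members passed limma's test after Benjamini-Hochberg adjustment over all 7453 probe sets, of which 0.0268% did. The lowest adjusted p among members was 0.436 in limma. At an unadjusted p under 0.05 in limma, 2 of the 7 members were higher, against 3.26% of all tested probe sets, and 0 were lower, against 3.68%. Since the members were chosen with this contrast known, nothing is read from these shares.

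**Figure D1:**
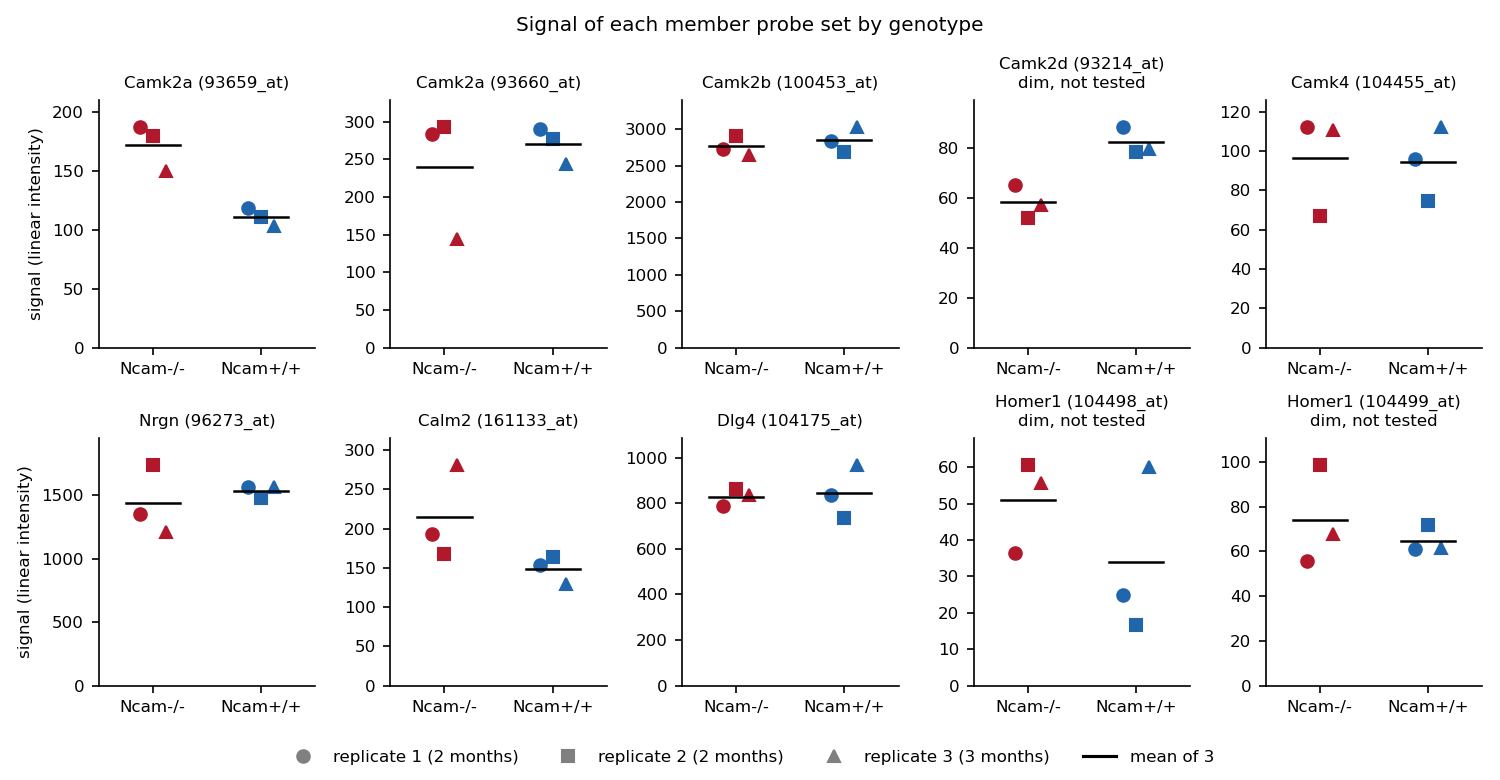
Signal (linear intensity) of each of the 10 member probe sets, with Ncam-/- animals on the left and Ncam+/+ animals on the right of each panel. Each point is 1 animal and the bar is the mean of 3. The first Camk2a panel, Camk2d and Calm2 show groups that do not overlap, whereas the second Camk2a panel has 1 knockout animal, at 143.6, below all others.

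Camk2a encodes the alpha subunit of CaMKII, the chief form in forebrain excitatory neurons, and lies on chromosome 18. Its probe set 93659_at read 187.3, 179.1 and 149.9 in knockout replicates 1, 2 and 3, against 118.4, 110.9 and 102.8 in wild-type replicates 1, 2 and 3. All 3 knockout brains were above all 3 wild-type brains. The wild-type values lay below the median signals of their own arrays, 123, 121.4 and 126.8, so this probe set passed the filter but was not bright. The means were 172.1 ± 19.6 in knockout and 110.7 ± 7.81 in wild-type brains (SD, n = 3 each), a log2 difference of 0.57 ± 0.14, or 1.48-fold (adjusted p = 0.436 in limma, and 0.209 to 0.812 over 17 alternative settings).

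The brighter Camk2a probe set, 93660_at, did not show this pattern. It read 283.2, 293.3 and 143.6 in knockout brains, against 290.1, 276.7 and 243.6 in wild-type brains. Knockout replicates 1 and 2 lay within or just above the wild-type range, and knockout replicate 3 was far below it. The log2 difference was -0.22 ± 0.23 (adjusted p = 0.853 in limma), and without knockout replicate 3 it was 0.09.

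The Camk2a probe sets were also compared within each array, as a description. The log2 value of 93659_at minus that of 93660_at was -0.56, -0.66 and 0.06 on the knockout arrays and -1.19, -1.21 and -1.13 on the wild-type arrays. All 3 knockout values were above the wild-type values, with means of -0.39 ± 0.39 in knockout and -1.17 ± 0.04 in wild-type brains (SD, n = 3 each). This gap contains the 93659_at signal, whose genotypes already did not overlap, so it largely restates that value. How often the probe sets of other genes separate in this way was not counted. Across the 6 arrays the probe sets had a Pearson correlation of -0.0036, given as a description. The sources used here do not say which transcripts or parts of the gene each probe set reads, and no change of Camk2a as a whole can be stated from probe sets that differ in this way.

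Camk2d encodes the delta subunit of CaMKII, best known from heart muscle and present in brain at lower abundance, at chr3:126595487-126846326 (GRCm38.p6). Its probe set read 65.3, 52.2 and 57.4 in knockout brains, against 88.6, 78.6 and 79.8 in wild-type brains. Every knockout value was below every wild-type value. The means were 58.3 ± 6.58 in knockout and 82.3 ± 5.49 in wild-type brains (SD, n = 3 each), a log2 difference of -0.41 ± 0.17, which is 1.33-fold. The mean signal of 70.3 fell just short of the filter limit of 72.2, so no test was planned for it. Without the filter its adjusted p was 0.795 in limma, and at a pseudocount of 64 the difference was -0.26.

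Camk2b encodes the beta subunit, which binds actin and is abundant in both forebrain and cerebellum. It read 2736, 2915 and 2654 in knockout brains, against 2844, 2688 and 3037 in wild-type brains. The groups overlapped, and the log2 difference was -0.04 ± 0.07 (adjusted p = 0.911 in limma), the narrowest standard error of any member.

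Camk4, the nuclear kinase of this family, is known for high expression in cerebellar granule cells. It read 112.4, 67.0 and 110.6 in knockout brains, against 96.1, 74.8 and 112.3 in wild-type brains. The lowest value was that of knockout replicate 2, the array with low cerebellar signal, and wild-type replicate 2 was the next lowest although its cerebellar genes summed to 13275. The log2 difference was 0.02 ± 0.22 (adjusted p = 0.992 in limma), and without knockout replicate 2 it was 0.22. The part of cerebellar content in this value was not tested.

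Calm2 encodes calmodulin, the calcium sensor that every CaM kinase needs, at chr17:87433401-87446935. Its probe set read 193.7, 167.7 and 281.1 in knockout brains, against 154.0, 163.9 and 129.2 in wild-type brains. The groups did not overlap, but knockout replicate 2 was only slightly above wild-type replicate 2, and the 3-month-old animals held both extremes. The means were 214.2 ± 59.4 in knockout and 149.0 ± 17.9 in wild-type brains (SD, n = 3 each), a log2 difference of 0.46 ± 0.18, or 1.37-fold (adjusted p = 0.719 in limma, and 0.419 to 0.961 over 17 alternative settings). The difference was 0.26 without knockout replicate 3 and 0.17 in the 2-month-old animals alone.

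Nrgn, which encodes neurogranin, lies on the same chromosome as Ncam1, at chr9:37544493-37552745, 11.95 Mb from it. Its signal was 1352, 1738 and 1213 in knockout brains, against 1566, 1473 and 1560 in wild-type brains. Knockout replicates 1 and 3 were below the wild-type animals and knockout replicate 2 was above them. The log2 difference was -0.11 ± 0.12 (adjusted p = 0.854 in limma). Without knockout replicate 2 the groups did not overlap and the difference was -0.26 (adjusted p = 0.432 in limma, and 0.432 to 0.999 over 17 alternatives). Without knockout replicate 3 the difference was 0.00022. Smaller groups fail to overlap more often by chance. The share of all probe sets without overlap in such a subset was not counted, so nothing is read from it. Knockout replicate 2 also had the highest summed signal of 11 genes of forebrain excitatory neurons, 13046, against 10353 and 11248 in the other knockout and 10745 to 11272 in wild-type brains. The 11 did not all go the same way. Cck, Tbr1 and Lmo4, among others, read highest on that array, while Neurod2 and Nptx1 read lowest there. The part of forebrain content in the Nrgn value was not tested.

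Dlg4 encodes PSD-95, the main scaffold of the postsynaptic density, at chr11:70017203-70045535. It read 789.2, 862.3 and 838.1 in knockout brains, against 838.0, 734.6 and 969.1 in wild-type brains. The knockout values lay inside the wild-type range. The log2 difference was -0.02 ± 0.10 (adjusted p = 0.979 in limma).

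Homer1, a scaffold that bridges metabotropic glutamate receptors and Shank proteins, lies at chr13:93303757-93405129. Its probe set 104498_at read 36.5, 60.7 and 55.7 in knockout brains, against 25.03, 16.7 and 60.1 in wild-type brains. The other probe set, 104499_at, read 55.7, 98.7 and 67.6 in knockout brains, against 61.2, 71.7 and 61.7 in wild-type brains. Both were dim and both overlapped between genotypes, with log2 differences of 0.50 ± 0.33 and 0.13 ± 0.22 from the fit without the filter. Without wild-type replicate 3 the groups did not overlap for 104498_at, at a log2 difference of 0.85. The share of all probe sets without overlap in that smaller set of arrays was not counted. Without wild-type replicate 2 the difference of 104498_at was 0.24, and without knockout replicate 2 that of 104499_at was -0.06.

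**Figure D2:**
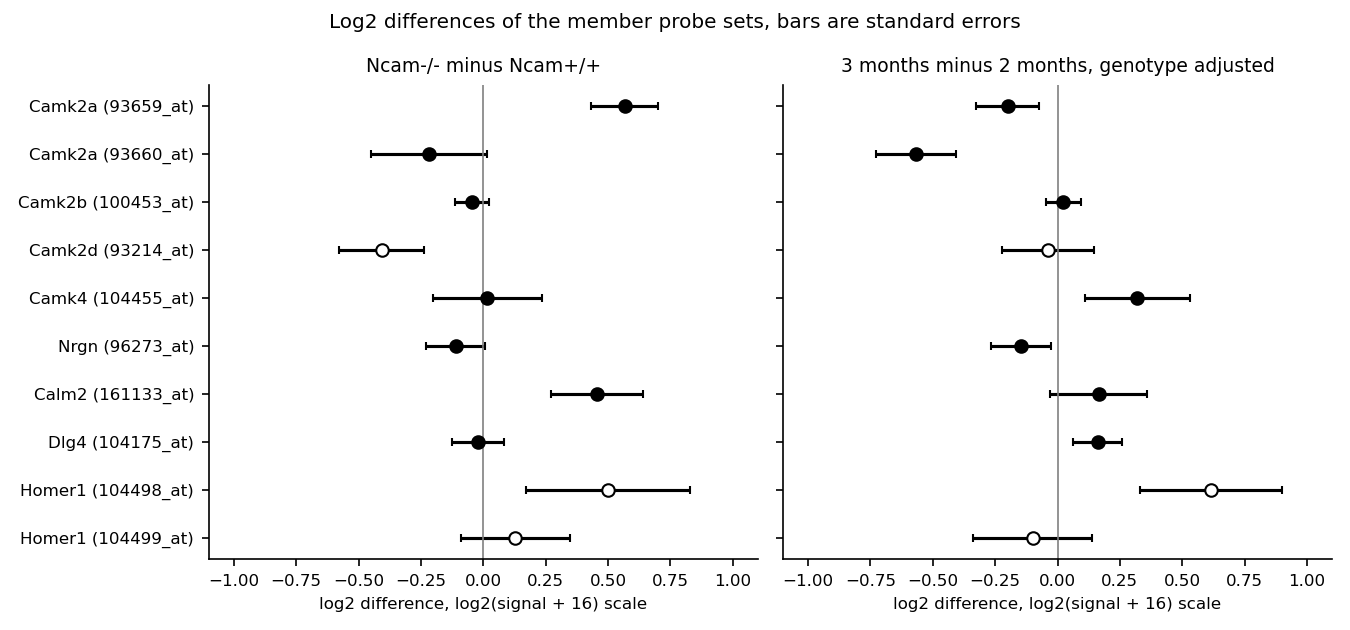
Log2 differences of the 10 member probe sets on the log2(signal + 16) scale, Ncam-/- minus Ncam+/+ on the left and 3 months minus 2 months with genotype as a covariate on the right. Points are fitted differences, bars are standard errors and open points mark the 3 dim probe sets. In the left panel the Camk2a probe sets lie on opposite sides of 0, at 0.57 and -0.22, and in the right panel both lie below it, at -0.20 and -0.57.

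Cell type and RNA quality measures are set beside the 3 probe sets whose genotypes did not overlap. Of 11 measured genes of oligodendrocytes and myelin 7 read lower without overlap and 0 higher, against 6.8% lower and 6.08% higher over all 7453 tested probe sets, and their summed signal was 17087 to 18288 in knockout, against 19053 to 20160 in wild-type brains, with no marker at 0 and a lowest single value of 165.0. Of 14 measured astrocyte genes 3 read lower and 1 higher without overlap, and their summed signals, 41338 to 43147 in knockout brains against 42309 to 44539 in wild-type brains, overlapped. The Gapdh controls, whose 3' signal over 5' signal is a sign of RNA quality, gave ratios of 0.811 to 0.826 on knockout arrays, against 0.768 to 0.798 on wild-type arrays. The same ratio of the beta-actin controls overlapped, at 1.145 to 1.223 on knockout arrays, against 1.084 to 1.196 on wild-type arrays. The part of any of these in the Camk2a, Camk2d and Calm2 values was not tested.

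Further genes of calmodulin signalling went in both directions. Of a list of 36 kinases, phosphatases, calmodulin-binding proteins and targets, 16 were measured, of which 8 were higher and 8 lower in knockout brains. None was called, none reached an unadjusted p under 0.05 in limma and the median log2 difference was -0.0016, against 0.0017 over all 7453 probe sets. The calcineurin subunits, which form the calmodulin-dependent phosphatase that opposes the kinases, had log2 differences of 0.0075 ± 0.08 for Ppp3ca, 0.22 ± 0.16 for Ppp3cb, -0.11 ± 0.18 for Ppp3cc and 0.07 ± 0.06 for the regulatory Ppp3r1. Pde1b and Pde1a, calmodulin-stimulated phosphodiesterases, had 0.14 ± 0.09 and -0.15 ± 0.13, and Adcy8, a calmodulin-stimulated adenylyl cyclase, had -0.09 ± 0.19. Pnck, a kinase of the CaMKI group, had 0.12 ± 0.12, Add1, an adducin of the membrane skeleton, -0.12 ± 0.08, and Gap43, a growth cone protein that binds calmodulin as neurogranin does, -0.01 ± 0.12. Calm3, Camk2n1 and Pcp4 were not measured in this list.

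Of 58 other genes of the postsynaptic density and of plasticity, 29 were measured, with 21 higher and 8 lower in knockout brains, where 50.4% of all tested probe sets were higher. None was called, and 2 were higher at an unadjusted p under 0.05 in limma. By the brightest probe set of each gene alone, 3 were higher with no overlap between genotypes and 0 lower. Over all tested probe sets 6.08% were higher and 6.8% lower without overlap. A dimmer probe set of Prkar1b, outside this count, was lower without overlap. The median log2 difference was 0.07, and 0.01 without knockout replicate 2, the array with the highest summed forebrain signal. The part of forebrain content in this median was not tested. Homer2, a relative of Homer1, read 250.7, 299.7 and 322.7 in knockout brains, against 214.3, 221.9 and 214.1 in wild-type brains, or 0.39 ± 0.12 on the log2 scale (adjusted p = 0.548 in limma), by a probe set whose suffix marks an incomplete set of probes. Kalrn, a guanine nucleotide exchange factor that enlarges spines, read 2036, 2136 and 1691 in knockout brains, against 1690, 1613 and 1464 in wild-type brains (0.29 ± 0.10, adjusted p = 0.645 in limma). Both were higher in every knockout brain, but Kalrn only barely, with 1690.7 in knockout replicate 3 and 1690 in wild-type replicate 1. Dlg1, which encodes the scaffold SAP97, had 0.16 ± 0.08 and the phosphatase subunit Ppp1cc 0.14 ± 0.08.

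Homer3, the Homer protein of Purkinje cells, read 313.7, 135.0 and 331.4 in knockout brains, against 349.4, 277.7 and 349.7 in wild-type brains, a log2 difference of -0.39 ± 0.28. Knockout replicate 2, the array with low cerebellar signal, held the low value, and without it the difference was -0.0058. The part of cerebellar content in this value was not tested. Nptx1, a secreted pentraxin that clusters glutamate receptors, had -0.26 ± 0.26, and Nsf, the vesicle fusion ATPase, -0.10 ± 0.09. Prkar1b, a regulatory subunit of protein kinase A, had -0.10 ± 0.08 in 1 probe set, which overlapped between genotypes. It had -0.28 ± 0.15 in a dimmer one, which did not. Arc was not measured.

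**Figure D3:**
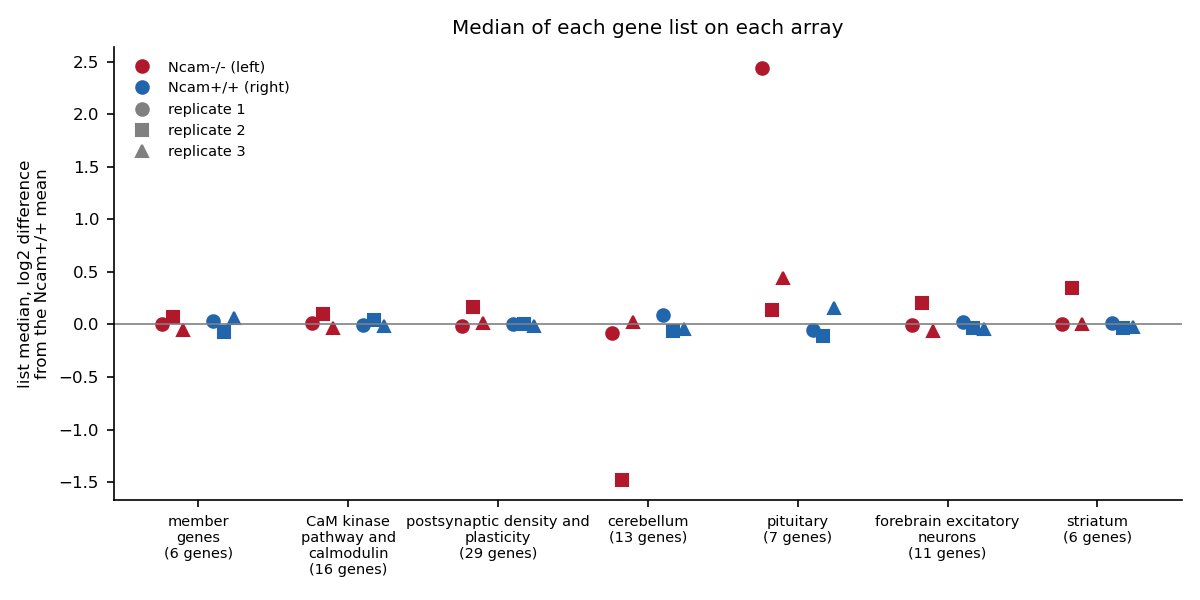
Median of each gene list on each array, as the log2 difference from the Ncam+/+ mean, with Ncam-/- arrays on the left and Ncam+/+ arrays on the right of each list. The member genes and both signalling lists lie between -0.07 and 0.17, whereas the cerebellar list is at -1.48 on knockout replicate 2 and the pituitary list at 2.44 on knockout replicate 1.

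The labels also allow a comparison by age, which was not used to choose the members. The 3-month-old animals, 1 of each genotype, were set against the 4 2-month-old animals with genotype as a covariate. None of the 7 tested members passed (lowest adjusted p = 0.273 in limma), against 0.0268% of all tested probe sets. At an unadjusted p under 0.05 in limma 1 of the 7 was lower, against 6.09% of all tested probe sets. That member was Camk2a, by probe set 93660_at, with 143.6 and 243.6 at 3 months and between 276.7 and 293.3 at 2 months. The 3-month values were below all others, as was the case for 10.3% of tested probe sets, and the log2 difference was -0.57 ± 0.16. It was -0.21 (adjusted p = 0.804 in limma, and 0.157 to 0.804 over the alternatives) without knockout replicate 3 and -0.93 without wild-type replicate 3. The Camk2a probe set 93659_at had -0.20 ± 0.13.

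The other members overlapped between ages. Camk4 had a log2 difference of 0.32 ± 0.21, Calm2 0.16 ± 0.19, Dlg4 0.16 ± 0.10, Nrgn -0.15 ± 0.12 and Camk2b 0.02 ± 0.07. The dim Homer1 probe set 104498_at read 55.7 and 60.1 at 3 months and 16.7 to 60.7 at 2 months, and 104499_at read 61.7 and 67.6 at 3 months and 55.7 to 98.7 at 2 months. Camk2d read 57.4 and 79.8 at 3 months and 52.2 to 88.6 at 2 months.

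By age, 15 of the 29 measured genes of the postsynaptic density and plasticity list were higher at 3 months, where 51.1% of all tested probe sets were, with a median log2 difference of 0.00074, against 0.0047 over all tested probe sets. In limma 1 of them was called, and at an unadjusted p under 0.05 there were 3 higher (Fos, Egr1 and Nptx1) and 3 lower (Ppp1cb, Kalrn and Lin7c), against 6.31% and 6.09% of all tested probe sets. Fos, a transcription factor of the immediate early response, read 809.0 and 668.1 at 3 months, against 113.9 to 304.4 at 2 months, which is 1.93 ± 0.19 on the log2 scale (adjusted p = 0.0363 in limma), and it was 1 of the 2 probe sets called by age over the whole array. The call was lost without any 1 of knockout replicates 1 and 3 and wild-type replicates 1, 2 and 3 (adjusted p 0.0590 to 0.167), without the filter and without the intensity trend (0.122 and 0.290), and the difference was 1.62 to 2.24 and the adjusted p 0.0150 to 0.290 over all 14 settings, tried for this gene after seeing the data. Egr1, another such factor, read 1280 and 1249 at 3 months, against 615.5 to 1081 at 2 months (0.73 ± 0.16, adjusted p = 0.243 in limma), and passed without knockout replicate 2 (adjusted p = 0.0368, and 0.0368 to 0.489 over the alternatives). Among other genes of this list that neuronal activity is known to induce, Bdnf, a neurotrophin, had 0.11 ± 0.11 by age. Nptx2, a secreted pentraxin, had 0.04 ± 0.10. The member Homer1 had 0.62 ± 0.28 by age in its dim probe set 104498_at. Its other dim probe set, 104499_at, had -0.10 ± 0.24, both from the fit without the filter. Between genotypes Fos and Egr1 overlapped, with log2 differences of 0.68 ± 0.63 for Fos and 0.33 ± 0.27 for Egr1.

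Of the 16 measured genes of calmodulin signalling, 8 were higher and 8 lower at 3 months, with a median log2 difference of -0.02. None was called in limma. At an unadjusted p under 0.05 in limma 0 were higher, against 6.31% of all tested probe sets. There were 3 lower, Gap43, Marcks and Marcksl1, against 6.09%. Gap43 read 2162 and 2138 at 3 months, against 2537 to 2782 at 2 months (log2 difference -0.32 ± 0.06, adjusted p = 0.230 in limma). Marcks, a protein kinase C substrate that binds calmodulin and actin, read 748.4 and 779.3, against 978.1 to 1036 (-0.39 ± 0.07, adjusted p = 0.229), and its relative Marcksl1 916.0 and 950.3, against 1190 to 1486 (-0.50 ± 0.11, adjusted p = 0.243). In all 3 the ages did not overlap, and 10.3% of all tested probe sets were likewise lower at 3 months without overlap. The 3 are those of the list under that p limit, so the lack of overlap adds little to it. Age cannot be told apart from anything else that the animals numbered 3 shared, such as the day of dissection, which the labels do not give.

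**Figure D4:**
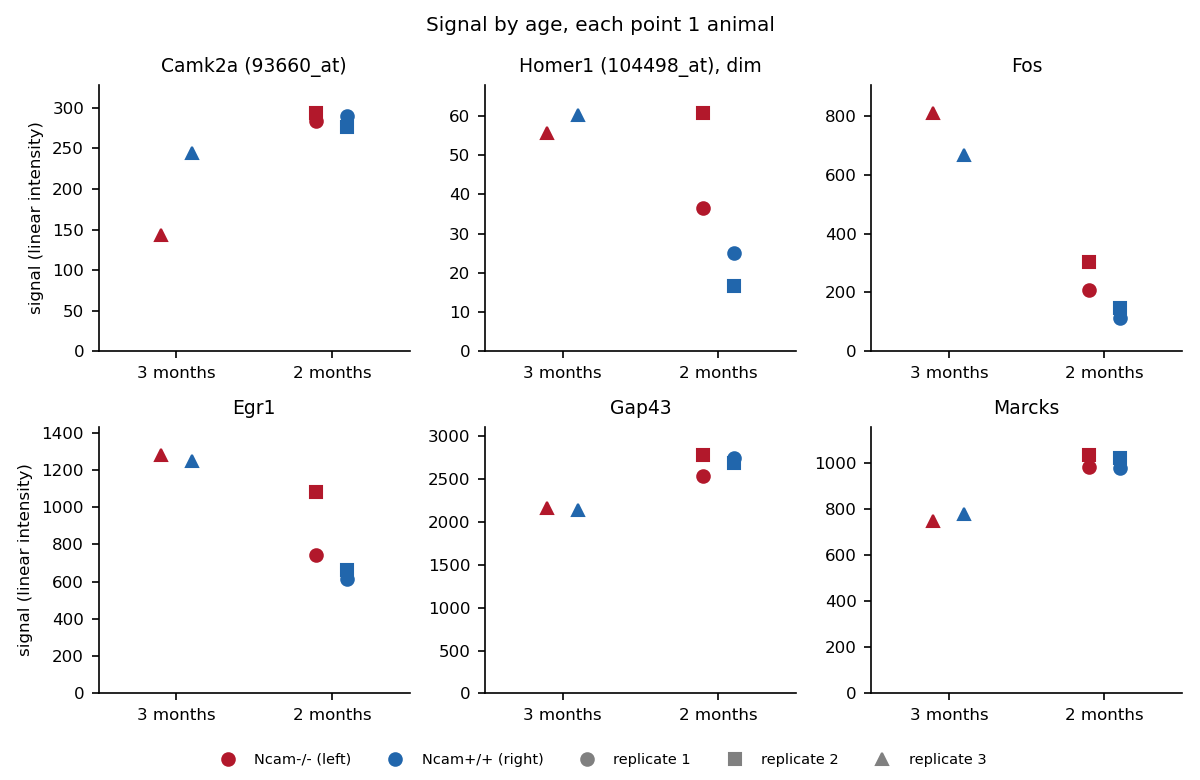
Signal (linear intensity) by age, with 3-month-old animals on the left and 2-month-old animals on the right of each panel, and with Ncam-/- animals to the left of Ncam+/+ animals within an age. Each point is 1 animal. Fos reads 668.1 or more at 3 months and 304.4 or less at 2 months, and the Camk2a probe set 93660_at, Gap43 and Marcks read lower at 3 months without overlap.

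The genes whose pattern over the 6 arrays was most like that of a member are named as a description, with Pearson's r of log2 values and no test. For Camk2a (93660_at) these were 1110059E24Rik, Rab34 and Cln6 (r = 0.992, 0.987 and 0.984), for Calm2 Arl2bp, Stmn3 and Pitpnb (0.995, 0.978 and 0.977) and for Nrgn Uqcr11, Spock1 and Mrps15 (0.993, 0.992 and 0.987). For Camk2b they were Sgpl1, Cbr3 and Slc1a1 (0.990, 0.969 and 0.964), for Camk4 Gja5, Usp3 and Krt2 (0.991, 0.984 and 0.984) and for Dlg4 Gfus, Zhx1 and Cox4i1 (0.991, 0.967 and 0.966). With 6 arrays high values are common. Between 26 probe sets for Dlg4 and 141 for Camk2a correlated above 0.9, out of about 6735 compared with each, and no member stood among the 3 closest of another.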

How the data were processed

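Signal was measured in 6 brains, 3 per genotype, on one-colour Affymetrix arrays processed with GCOS 1.4, per the submitters' processing notes, whose settings the sources used here do not give. Deposited was 1 linear intensity per probe set and array. The authors appear, from the values, to have scaled every array to the same trimmed mean over the middle 96% of values. No detection calls were used.

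The 66 control entries were set aside and values transformed as log2(signal + 16). Probe sets at or above the 40th percentile of mean log2 value (6.46, a signal of 72.2) were tested with limma 3.58.1 in R 4.3.3 (lmFit, eBayes with intensity trend, two-sided), with Benjamini-Hochberg adjustment over all of them, with genotype alone or with age and genotype. Symbols came from the platform annotation, which can be old. Loci and promoter windows came from RefSeq (GRCm38.p6). Lists used the brightest tested probe set of each gene. In the 2 signalling lists every count is given, and the 4 genes with the lowest p in each direction between genotypes were named, with 10 genes fixed by name. Marcks, Marcksl1, Ppp1cb, Lin7c, Bdnf and Nptx2, and Prkar1b by its other probe set, fall outside that rule and were chosen after seeing their values. Tested on simulated data, the fit recovered 87.4% of changes of 1 and 97.4% of changes of 2 on the log2 scale with 200 of 7453 probe sets changed. Recovery of changes under 1 was not counted. All member differences were under 1, so these shares do not say how often differences of their size would be called. Members and lists were chosen with earlier results of these data known. The labels name separate animals, so the p values measure the spread between animals. Alternatives were other scalings, pseudocounts, filters and models, age or replicate number as a term, 2-month-old animals alone and each array left out. Figures were drawn with matplotlib 3.10.9.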

Additional observations from a re-analysis of the deposited data

Results flagged for a closer look

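For 2 member probe sets the knockout animals lay on opposite sides of their age-matched wild-type mean at the 2 ages, which was not tested since each genotype had 1 animal of 3 months. Dlg4 had a log2 difference of -0.21 at 3 months and, in the 2 knockout animals of 2 months, of 0.0082 and 0.13, so that the difference at 3 months minus that at 2 months was -0.28. Homer1 by its dim probe set 104498_at had -0.08 at 3 months and 0.52 and 1.07 at 2 months, so that the same quantity was -0.88.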

How the results depend on the processing

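Over 17 alternative settings, 0 member probe sets were called between genotypes, and over 14 settings 0 were called by age, both in limma as in the fits reported. The fit with the replicate number as a block also called 0 members (Camk2a 93659_at, adjusted p = 0.341 in limma). Same-numbered animals had correlations of deviations of 0.015, 0.15 and 0.20. Knockout replicates 2 and 3 correlated best with the wild-type animal of the same number, whereas knockout replicate 1 correlated best with wild-type replicate 2 (0.081). The animals numbered 3 also shared an age. The labels name no pairs, so the main fit took none, and these values do not settle whether the numbers are pairs. The count of member probe sets whose genotypes did not overlap, an alternative added after seeing the data, was 3 after both other scalings and 3 to 4 with an array left out. The fourth was Nrgn without knockout replicate 2 and Homer1 without wild-type replicate 3, and Homer1 again in 2-month-old animals alone (4). The difference kept its sign under all 17 settings for Camk2a 93659_at (0.43 to 0.65), Camk2d (-0.50 to -0.26), Calm2 (0.17 to 0.60) and Homer1 104498_at (0.24 to 0.85), and did not for the other members. Signal over background was not measured, and the differences of Camk2d and Homer1, below the filter limit, come from the fit without the filter.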
